A study of Mus musculus with 159 samples.

Results

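Interferon-stimulated genes are the transcripts that cells switch on when interferons reach their receptors. A list of 39 of them was followed through liver and prefrontal cortex (PFC) of mice that drank ethanol or were injected with lipopolysaccharide (LPS), the cell wall endotoxin of gram-negative bacteria. The members were taken from the deposited value table by gene symbol, current or older, and 30 of the 39 had a probe there, 44 probes in all out of 13983. Iigp1, Tgtp1, Ifit1, Ifi44, Isg20, Xaf1, Oas1a, Ifih1 and Parp9 had no probe in the table and were not analysed here.

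All mice were female C57BL/6J, given as 2.5 months of age in the labels, and each array held RNA of 1 mouse. The study's methods instead have Chronic and CI mice older at the start than DID and LPS mice, with treatments of unequal length. By those methods the DID mice were kept on a reversed light cycle and killed in the dark period, unlike the rest. There were 4 treatments. In Chronic, mice had 2 bottles with 20% ethanol always on offer, in CI (Chronic Intermittent) ethanol was on offer every other day, and in DID (Drinking in the Dark) it was given as a single bottle for limited access, each beside controls that drank water. In LPS, mice had 2 injections of 1 mg/kg into the peritoneum a week apart, and tissue was taken a week after the last. The labels of the LPS controls say water, while the series' design text says saline injections. Each of the 16 groups had 10 arrays, other than the 9 of the Chronic PFC controls. Drinking was voluntary and both tissues are bulk samples, in which fewer cells of a type and less RNA per cell cannot be told apart.

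Type I interferons act on promoters that hold the interferon-stimulated response element (ISRE), bound by a complex that includes Stat2 and Irf9, and interferon gamma acts on those with the gamma-activated site (GAS). The induced proteins block virus entry, degrade or sense foreign RNA, attack vacuoles that hold microbes, or feed back on the pathway. In liver the genes are active in hepatocytes and in resident macrophages, and in brain microglia, vessels and glia carry them at rest and in inflammation. LPS induces interferon beta through Toll-like receptor 4, and many of these transcripts are known to rise within hours of it.

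The values are log2 signals that were normalized within each tissue and treatment, so that levels are set side by side between sets and only differences between groups were tested. Values ran from 7.70 to 15.65, and at the low end a decrease can hardly show. Values were held for 22, 21, 19 and 21 of the members in Chronic, CI, DID and LPS PFC, and for 29, 30, 28 and 28 in liver. From 9 to 16 of the members of a set lay below its median transcript. No pair of arrays was a duplicate, and 9 of the 159 arrays stood apart from their set by their mean correlation, the lowest of which was 0.946 in a CI PFC control. Where several probes read a gene, the brightest in the set stands for it. A change is the treated mean less the control mean, on the log2 scale, followed by limma's standard error (SE), DE means an unadjusted p under 0.05, which is the study's own threshold, and rose or fell is written only at a Benjamini-Hochberg adjusted p under 0.05 over all probes of the set. As a tissue check, 10 hepatocyte markers in LPS liver averaged 14.43 to 14.55 in the LPS mice, and 6 neuron markers in LPS PFC averaged 12.98 to 13.18. In the CI PFC controls 6 neuron markers ranged more widely, from 11.82 to 13.06.

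The promoters were searched for both elements. In the 250 bases before the start of transcription of all 32851 promoters in the RefSeq table (build GRCm38.p6), the ISRE core GAAANNGAAA, searched on both strands, was found in 2.98%, and the GAS letters TTCNNNGAA, which read alike on both strands, in 7.02%. Of the 32 members with a promoter in the table, 14 held the ISRE core and 9 the GAS letters. The 4 stretches below, each ending at the base before the start, belong to members that were DE and lower in LPS liver, and are shown as examples of the letters searched for. Capitals mark the ISRE core or, where cores overlap, the run they cover.
Isg15: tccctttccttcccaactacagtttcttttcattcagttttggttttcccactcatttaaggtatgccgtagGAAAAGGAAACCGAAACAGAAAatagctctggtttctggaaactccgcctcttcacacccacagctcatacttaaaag
Ifit3: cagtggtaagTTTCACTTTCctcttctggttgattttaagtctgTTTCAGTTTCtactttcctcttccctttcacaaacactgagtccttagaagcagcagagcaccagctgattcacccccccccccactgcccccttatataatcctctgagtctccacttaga
Rsad2: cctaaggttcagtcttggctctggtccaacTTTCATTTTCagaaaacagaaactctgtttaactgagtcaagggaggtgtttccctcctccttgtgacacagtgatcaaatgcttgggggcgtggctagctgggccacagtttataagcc
Gbp3: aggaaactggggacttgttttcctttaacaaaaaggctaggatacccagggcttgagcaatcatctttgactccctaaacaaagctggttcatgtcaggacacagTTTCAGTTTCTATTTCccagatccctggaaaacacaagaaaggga
In the order shown, these lie at chr4:156200819-156200968, minus strand, chr19:34583363-34583528, plus strand, chr12:26456453-26456602, minus strand and chr3:142559894-142560043, plus strand. The core is also present before the start of Ifitm2 and is shown here since that gene was DE and higher in LPS PFC (chr7:140955962-140956111, minus strand).
Ifitm2: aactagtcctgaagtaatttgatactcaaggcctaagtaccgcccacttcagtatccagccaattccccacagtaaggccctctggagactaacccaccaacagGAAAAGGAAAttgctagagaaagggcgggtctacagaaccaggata
A match is a description of letters and not of binding. Of the 13 members that were DE in LPS liver, 10 had a promoter in the table and 5 of these held the core, and of the 15 measured members that were not DE, 14 had a promoter and 6 held it.

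In liver, a week after the last LPS injection, 25 of the 28 measured members had lower means than in controls, where 51.2% of all transcripts were lower. DE members numbered 13, every one of them lower, while 11.6% of all 9550 transcripts were DE and 5.38% were DE and lower. Dhx58 and Irf9 fell at an adjusted p under 0.05, which 0.555% of all transcripts passed. The median change of the members was -0.11 in log2, against 0.00 for all transcripts, and the changes ran from -0.37 to 0.09. The sizes were small: the 13 DE members were 1.07-fold to 1.29-fold lower.

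Dhx58, which encodes LGP2, a helicase that tunes the sensing of viral RNA, had the smallest p. Its control values ran from 8.55 to 8.83 with a median of 8.66, and its LPS values ran from 8.29 to 8.52 with a median of 8.39. The groups did not overlap, with every LPS mouse under the lowest control. Here and below, the share of all transcripts whose groups did not overlap was not counted. Dhx58 fell by 0.25 (SE 0.04, adjusted p = 0.00391), or 1.19-fold. Leaving out each of the 20 arrays in turn gave changes from -0.26 to -0.23 with adjusted p from 0.00234 to 0.0106. Irf9, the DNA-binding subunit of the complex that reads the ISRE, ran from 9.25 to 9.51 with a median of 9.43 in controls and from 9.10 to 9.38 with a median of 9.16 after LPS. All 10 LPS mice lay below the control mean, 6 of them under the lowest control, although the groups overlapped. It fell by 0.20 (SE 0.04, adjusted p = 0.0314). Leaving out an array gave changes from -0.22 to -0.19 with adjusted p from 0.0146 to 0.0647, and the call was lost without any 1 of controls 1, 3, 4, 5, 6, 7 and 8 or of LPS mice 3, 4, 5, 6 and 7. The dimmer Irf9 probe had a change of -0.08 (SE 0.05, p = 0.0974), and the mean of both probes gave -0.14 (adjusted p = 0.0834). The other transcription factors were lower but not DE: Irf1, an early factor, had a change of -0.15 (SE 0.08, p = 0.0771), Irf7, the factor that amplifies type I interferon, -0.08 (SE 0.04, p = 0.0615), and Stat2, the partner of Irf9, -0.06 (SE 0.03, p = 0.0712). Dimmer Irf1 probes had changes of -0.01 (SE 0.07, p = 0.851), -0.03 (SE 0.05, p = 0.516) and -0.07 (SE 0.04, p = 0.109).

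Among the IFIT proteins and other antiviral effectors, 8 of 10 were lower and 5 were DE. Ifit3, which binds partner IFIT proteins on foreign RNA, had the largest change of any measured member. Its controls ran from 9.67 to 10.44 with a median of 10.05 and its LPS mice from 9.29 to 9.97 with a median of 9.67. The change was -0.37 (SE 0.09, p = 6.4e-04, adjusted p = 0.0691), and 10 of 10 LPS mice lay below the control mean. The dimmer Ifit3 probes had changes of -0.12 (SE 0.05, p = 0.0232) and -0.12 (SE 0.06, p = 0.0502), and Ifit3b, a close copy next to Ifit3, could share their signal. Rsad2, or viperin, an enzyme that makes a chain-ending nucleotide, ran from 8.87 to 9.79 with a median of 9.25 in controls and from 8.75 to 9.06 with a median of 8.83 after LPS. Its change was -0.35 (SE 0.09, p = 7.8e-04, adjusted p = 0.0761), over 9 LPS values since 1 was blank, and every one of them was below the control mean. In controls, 1 mouse was well above the rest and the groups overlapped. Ifi27, a small interferon-induced membrane protein, had a change of -0.22 (SE 0.07, p = 0.00315, adjusted p = 0.128), and its other probe a change of -0.21 (SE 0.06, p = 0.00305). Ifi35, an interferon-induced leucine zipper protein, had -0.13 (SE 0.05, p = 0.0126), and Samhd1, which removes the nucleotides that viruses copy with, -0.10 (SE 0.05, p = 0.0341). Ifit2 (-0.07 (SE 0.05)), Lgals3bp (-0.11 (SE 0.06)) and Ifitm3 (-0.06 (SE 0.05)) were not DE. Ifitm2, which like Ifitm3 hinders virus entry from endosomes, and Bst2, which tethers budding virus, had higher means, 0.09 (SE 0.05, p = 0.0831) and 0.01 (SE 0.11, p = 0.923).

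The interferon-inducible GTPases, which coat vacuoles that hold microbes, were lower in 4 of 5 and DE in 3. Ifi47 ran from 8.90 to 9.68 with a median of 9.23 in controls and from 8.66 to 9.09 with a median of 8.91 after LPS. All 10 LPS mice were below the control mean and 5 were under the lowest control. Its change was -0.35 (SE 0.09, p = 4.9e-04, adjusted p = 0.0603). Gbp3 had a change of -0.19 (SE 0.07, p = 0.00891, adjusted p = 0.213) and Igtp of -0.16 (SE 0.06, p = 0.0131, adjusted p = 0.253). In both, the LPS mice lay in the lower part of the control range and none was under the lowest control. A dimmer Gbp3 probe had a change of -0.12 (SE 0.07, p = 0.111) and was not DE. Gbp2 had a change of 0.03 (SE 0.07). Irgm1 was read by 2 probes that disagreed in size: the brighter had a change of -0.03 (SE 0.06), the dimmer of -0.23 (SE 0.06, p = 9.9e-04, adjusted p = 0.0861).

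ISG15 and the enzymes around it were lower in all 3 measured members. Isg15, a ubiquitin-like protein that is joined to others in infection, ran from 8.73 to 9.35 with a median of 8.97 in controls and from 8.65 to 9.06 with a median of 8.73 after LPS, with 9 of 10 LPS mice below the control mean. Its change was -0.23 (SE 0.07, p = 0.00277, adjusted p = 0.126). Usp18, which takes Isg15 off again and quiets the type I interferon receptor, had a change of -0.26 (SE 0.08, p = 0.00309, adjusted p = 0.128), and its other 2 probes had changes of -0.20 (SE 0.06, p = 0.00605) and -0.10 (SE 0.05, p = 0.0456). Parp14, an ADP-ribosylating enzyme, had -0.04 (SE 0.06). Of the sensors and enzymes of double-stranded RNA, all 5 were lower. Besides Dhx58, Eif2ak2 was DE, the kinase PKR that halts translation, with a change of -0.14 (SE 0.04, p = 0.00202, adjusted p = 0.112). Its controls ran from 8.95 to 9.11 with a median of 9.01 and 7 LPS mice lay under the lowest of them. Ddx58, the sensor RIG-I, had -0.04 (SE 0.04), Adar, the enzyme that edits double-stranded RNA, -0.04 (SE 0.03) and Oasl2 -0.02 (SE 0.06). The chemokine Cxcl10 had -0.04 (SE 0.04).

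**Figure D1:**
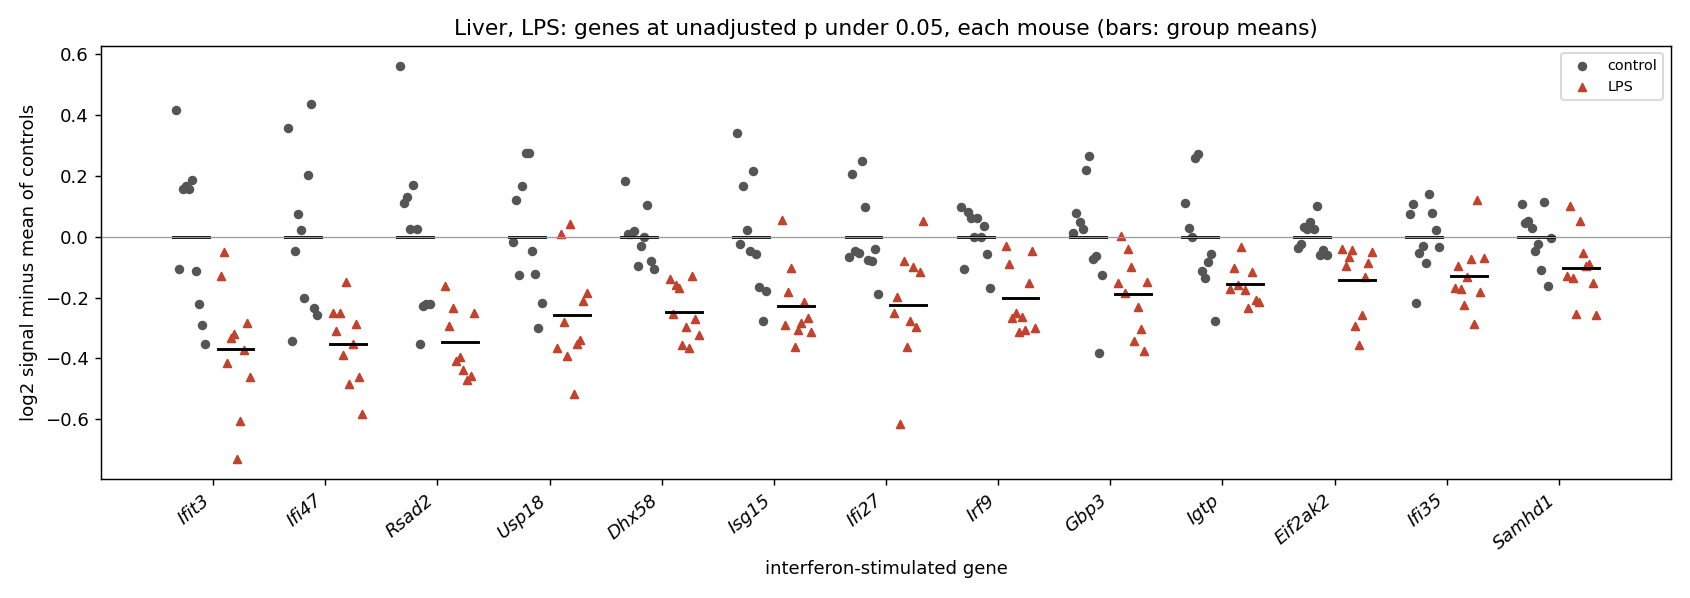
Log2 signal minus the control mean in LPS liver (y axis) for the 13 DE members (x axis), with circles for the control mice, triangles for the LPS mice and bars for group means. The LPS mean lies lower in each gene, and the groups overlap in all of them but Dhx58, with every LPS value of Igtp and Gbp3 above the lowest control.

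The shift was spread over the mice. The median over members of the deviation from the control mean was below 0 in all 10 LPS livers, from -0.23 to -0.04, and in 4 of 10 controls, from -0.12 to 0.07. Of the genes outside the list, 21 of 28 other interferon-stimulated genes were lower and 7 were DE. Lower were Cmpk2, the neighbour of Rsad2 (-0.14 (SE 0.04, p = 0.00214)), Daxx (-0.13 (SE 0.04, p = 0.00221)), Oasl1 (-0.16 (SE 0.05, p = 0.00553)), Gbp7 (-0.12 (SE 0.04, p = 0.00559)), Parp12 (-0.11 (SE 0.04, p = 0.0209)) and Mx2 (-0.07 (SE 0.03, p = 0.0269)), and Ccl5, a chemokine of T cells, was higher (0.23 (SE 0.07, p = 0.00213)). Among 7 nucleic acid sensors and adaptors 6 were lower and 1 was DE, the Z-nucleic acid sensor Zbp1 (-0.12 (SE 0.03, p = 8.1e-04)). Of 12 interferon receptors and signal proteins 8 were lower and 1 was DE and higher, Irf2, a factor that opposes Irf1 (0.22 (SE 0.07, p = 0.00497)). None of these passed the adjusted test, whose smallest adjusted p among them was 0.0776.

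Markers of other cells moved in the same livers. Both measured neutrophil markers were DE and higher, and their mean level was 8.12 to 8.80 in controls and 8.45 to 10.29 after LPS: S100a8 rose by 1.02 (SE 0.22, adjusted p = 0.0272), and S100a9 had a change of 0.56 (SE 0.14). Of 11 Kupffer cell markers 9 were higher and 1 was DE, Marco, a scavenger receptor, which rose by 0.35 (SE 0.03), with the list's mean level at 9.44 to 9.99 in controls and 9.54 to 9.94 after LPS. Of 8 endothelial markers 3 were DE and higher (8.76 to 8.94 against 8.89 to 9.03), of which Lyve1, a hyaluronan receptor of sinusoidal and lymphatic endothelium, rose by 0.53 (SE 0.07, adjusted p = 4.5e-04). The DE and higher count was 2 of 4 for lymphocyte markers (8.21 to 8.36 against 8.26 to 8.48) and 2 of 3 for blood markers (10.61 to 11.33 against 10.81 to 11.51). Of 10 hepatocyte markers 0 were DE, and 9 were higher. The part of these in the result was not tested. Without control 1, the array that stood apart in LPS liver, 25 of the 28 members had lower means.

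In PFC the same injections left 17 of the 21 measured members higher, where 48.7% of all transcripts were higher, and their median change was 0.05. DE members numbered 6, against 9.58% of all transcripts, of which 5 were higher (4.61% of all) and 1 lower (4.97% of all). The higher ones had adjusted p of 0.136 or more, so none of them rose by the adjusted test. The 5 were all among the 8 antiviral effectors. Ifitm3 ran from 10.01 to 10.63 with a median of 10.16 in controls and from 10.30 to 10.59 with a median of 10.46 after LPS. All 10 LPS mice lay above the control mean, and 1 control lay above them all. Its change was 0.24 (SE 0.06, p = 7.8e-04, adjusted p = 0.136), or 1.18-fold. Ifitm2 ran from 8.83 to 9.19 with a median of 9.00 in controls and from 9.01 to 9.37 with a median of 9.15 after LPS, also with 10 of 10 above the control mean. Its change was 0.18 (SE 0.05, p = 0.00127, adjusted p = 0.177). Lgals3bp, a secreted protein that binds galectin-3, had a change of 0.17 (SE 0.05, p = 0.00269, adjusted p = 0.221), Ifi27 of 0.17 (SE 0.05, p = 0.00489, adjusted p = 0.278) and Ifit3 of 0.12 (SE 0.05, p = 0.0181, adjusted p = 0.401). For Ifi27 the other probe had 0.10 (SE 0.04, p = 0.0199), and for Ifit3 the others had 0.04 (SE 0.03, p = 0.162) and 0.05 (SE 0.03, p = 0.163). In these 3 genes the LPS and control ranges overlapped, and from 8 to 10 of 10 LPS mice lay above the control mean.

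Adar was the 1 member of PFC that passed the adjusted test, as did 0.113% of all transcripts. It fell by 0.13 (SE 0.03, adjusted p = 0.0400). Its controls ran from 10.29 to 10.40 with a median of 10.35 over 9 values, 1 being blank, and its LPS mice ran from 10.15 to 10.29 with a median of 10.21, so that the values held did not overlap. The blank control may have lain outside its range, since the study removed outlying values. A second Adar probe had a change of 0.02 (SE 0.03, p = 0.460), and the mean of both probes gave -0.05 (adjusted p = 0.424). Leaving out an array gave changes from -0.14 to -0.13, and the call held only without control 9 or without LPS mouse 5 or 10, with adjusted p from 0.0376 to 0.09997 over the 20 fits. It was also lost when limma's moderation of variances was set to trend and robust (adjusted p = 0.198) and with the dimmest probes filtered out (adjusted p = 0.0668).

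The remaining members of PFC were not DE. The 3 transcription factors had changes of 0.05 (Irf1), 0.05 (Stat2) and 0.04 (Irf9), the GTPases of -0.01 (Igtp) to 0.10 (Irgm1), and Isg15, Usp18 and Parp14 of 0.02, 0.06 and 0.02. Irgm1 was higher by its brighter probe and lower by the other (-0.05, SE 0.03, p = 0.0791). An additional probe of Irf1 had a change of 0.06 (SE 0.03, p = 0.0318). Ifi47, Irf7, Dhx58, Ddx58, Ifi35, Rtp4, Trim25, Bst2 and Cxcl10 had no values in LPS PFC.

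**Figure D2:**
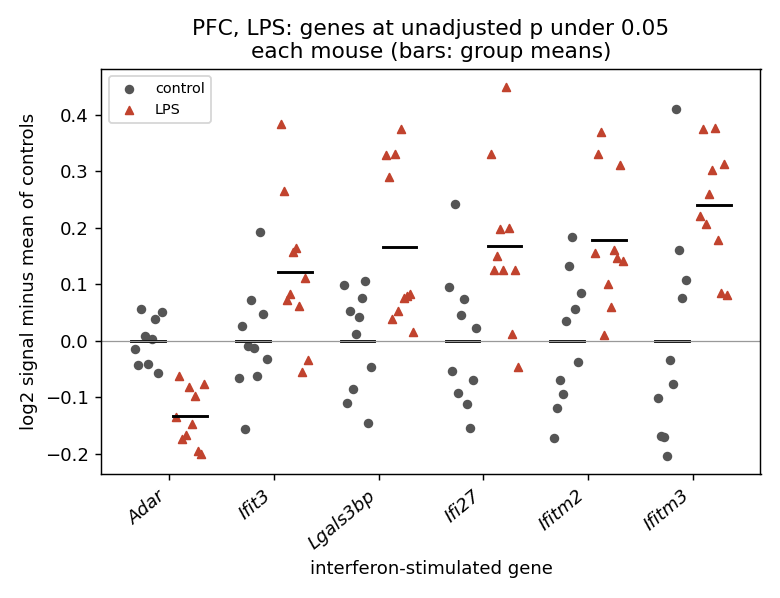
Log2 signal minus the control mean in LPS PFC (y axis) for the 6 DE members (x axis), with circles for control mice, triangles for LPS mice and bars for group means. Adar is lower without overlap, and the other 5 are higher with overlapping ranges.

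Outside the list, 8 of 14 other interferon-stimulated genes had higher means in LPS PFC and 6 lower, with a median change of 0.02. The 3 that were DE were all higher: B2m, the light chain of MHC class I (0.25 (SE 0.05, p = 6.5e-05, adjusted p = 0.0535)), the GTPase Irgm2 (0.10 (SE 0.04, p = 0.0202)) and the immunoproteasome subunit Psmb9 (0.07 (SE 0.03, p = 0.0136)). Of 12 receptors and signal proteins 7 were higher and 5 lower, and 1 was DE and lower, Irf8, a factor of myeloid cells (-0.06 (SE 0.03, p = 0.0384)). Of 5 sensors and adaptors 4 were higher and 0 were DE. Markers of other cells were higher beside them. Of 6 meningeal and vascular fibroblast markers all were higher, 4 DE and 2 past the adjusted test (Mgp, 0.46, and Dcn, 0.41), with a mean level of 9.40 to 9.80 in controls and 9.71 to 10.15 after LPS. Of 11 microglia and macrophage markers 10 were higher and 6 DE (9.26 to 9.39 against 9.28 to 9.50), such as C1qb (0.12 (SE 0.04)) and Tyrobp (0.09 (SE 0.03)). All 3 blood markers were DE and higher (9.94 to 10.25 against 9.90 to 11.16), and 2 of 5 markers of the neighbouring thalamus (8.76 to 8.91 against 8.79 to 9.07). Endothelial, astrocyte, neuron and oligodendrocyte markers had 0 DE among 4, 6, 6 and 6. Their part in the higher values of the members was not tested.

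The difference between the tissues was tested as such, as the LPS effect in liver minus that in PFC, over 8167 transcripts with values in both and with the tissues taken as separate samples. The study's methods have brain and liver dissected at the same time, so the tissues probably share mice, but the labels tie no liver array to a PFC array. Of the 21 members measured in both, 15 differed at an unadjusted p under 0.05, against 10.5% of all transcripts, and 14 of these had the lower effect in liver, against 5.36%. After adjustment 3 remained, against 0.269% of all. Ifit3 differed by -0.49 (SE 0.11) with adjusted p = 0.0364, Ifi27 by -0.39 (SE 0.09) with adjusted p = 0.0370, and Irf9 by -0.24 (SE 0.05) with adjusted p = 0.0364. Ifit3 and Ifi27 were DE and lower in liver and DE and higher in PFC. Usp18 (-0.32 (SE 0.08)), Rsad2 (-0.34 (SE 0.09)), Ifitm3 (-0.30 (SE 0.08)), Lgals3bp (-0.28 (SE 0.08)), Gbp3 (-0.25 (SE 0.07)), Isg15 (-0.25 (SE 0.07)) and Eif2ak2 (-0.17 (SE 0.05)) had adjusted p from 0.0730 to 0.127. Adar alone differed the other way among the 15 (0.10 (SE 0.04, p = 0.0250)). Gbp2, Oasl2, Parp14, Ifit2, Ifitm2 and Irgm1 did not differ at that threshold. By control mean, 14 of the 21 members in LPS PFC lay below the median transcript of 9.16, against 9 of 28 in LPS liver. The lowest value in LPS PFC was 8.15, and for members near it a decrease in PFC could hardly show. With same-numbered liver and PFC arrays as a random block, added after seeing the data, the counts were again 15 and 3. The fitted correlation within these blocks was -0.0017, so the block could hardly change the counts. Since no label ties the arrays, it does not show whether sharing of mice matters. With array weights 6 members passed the adjusted test.

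**Figure D3:**
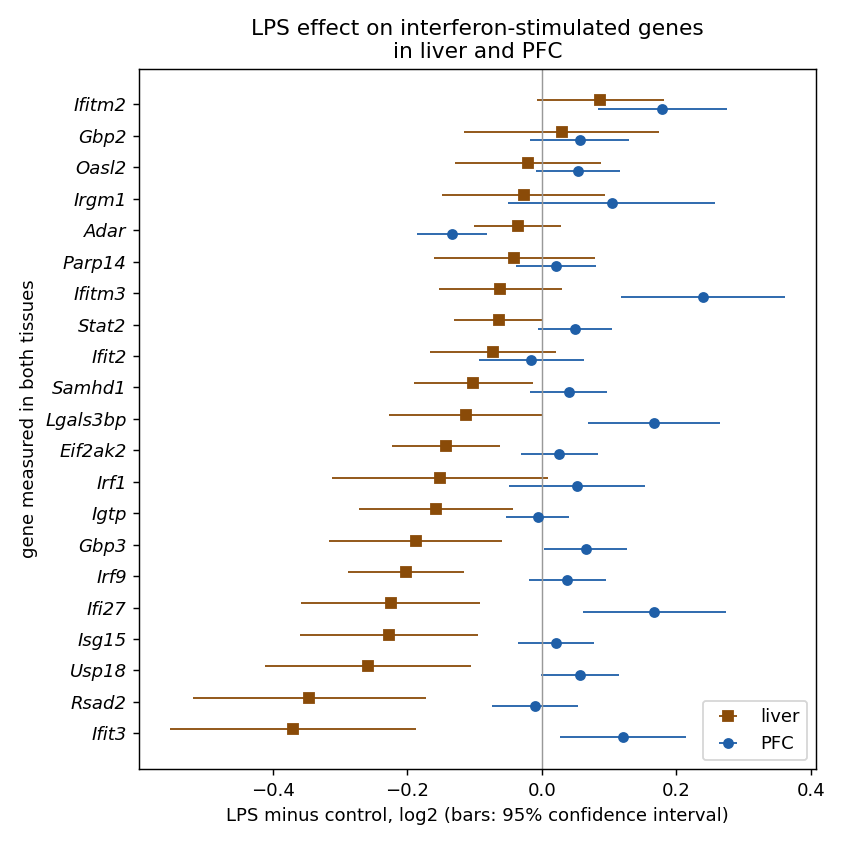
LPS minus control in log2 (x axis, with 95% confidence intervals) for the 21 members measured in both tissues (y axis), with squares for liver and circles for PFC. The intervals use the normal distribution and are slightly narrower than limma's t test would give. All but Adar have the lower value in liver, and the gap is widest in Ifit3.

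Ethanol left few members past even the unadjusted threshold. In Chronic liver 3 of 29 were DE, against 12.1% of all transcripts, and 0 passed the adjusted test in limma, which 1.5% of all did. Rsad2 ran from 9.08 to 9.43 with a median of 9.27 in water mice and from 8.88 to 9.23 with a median of 9.16 in drinkers, with all 10 drinkers below the water mean. Its change was -0.15 (SE 0.05, p = 0.00773, adjusted p = 0.169). Gbp3 had a change of -0.22 (SE 0.08, p = 0.0157, adjusted p = 0.242), with a dimmer probe at -0.11 (SE 0.10, p = 0.288), and Lgals3bp was higher by 0.14 (SE 0.05, p = 0.00988, adjusted p = 0.190). The next smallest p belonged to Trim25, a ligase that activates RIG-I (0.06 (SE 0.03, p = 0.0631)), and Ifit3 (-0.17 (SE 0.09, p = 0.0646)). Of 29 other interferon-stimulated genes 5 were DE and lower, and the peptide transporter gene Tap2, of the MHC class I route, was past the adjusted test with a change of -0.31 (SE 0.05, p = 1.6e-05, adjusted p = 0.00744).

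With CI, 2 of 30 members were DE in liver, against 10.5% of all transcripts, and 0 passed the adjusted test (0.23% of all). Ifi47 ran from 9.24 to 10.10 with a median of 9.62 in water mice and from 8.91 to 9.69 with a median of 9.18 in drinkers, of which 6 lay under the lowest water mouse and 1 above the water mean. Its change of -0.35 (SE 0.11, p = 0.00492, adjusted p = 0.197) was of the size seen after LPS. Isg15 had -0.15 (SE 0.06, p = 0.0218, adjusted p = 0.353). Rsad2 (-0.12 (SE 0.06, p = 0.0563)), Ifi27 (-0.13 (SE 0.08, p = 0.116)) and Rtp4 (-0.04 (SE 0.03, p = 0.128)) followed. In DID liver 1 of 28 was DE, against 5.19%, and 0 passed the adjusted test (0.0224% of all). This was Ifitm3, which ran from 13.68 to 14.12 with a median of 13.90 in water mice and from 13.51 to 13.92 with a median of 13.74 in drinkers, a change of -0.14 (SE 0.06, p = 0.0186, adjusted p = 0.754). Oasl2 (0.06 (SE 0.05, p = 0.236)), Ifi47 (0.10 (SE 0.09, p = 0.275)), Irf9 (-0.04 (SE 0.05, p = 0.348)) and Gbp2 (0.10 (SE 0.11, p = 0.353)) came next, so that Ifi47, lower in CI and LPS liver, had a higher mean here with wide overlap. Lower means were seen in 21 of 29 members in Chronic liver, 21 of 30 in CI and 12 of 28 in DID. The shares of all transcripts were 50.2%, 49.8% and 50.8%. The median changes of the members were -0.02 in Chronic, -0.02 in CI and 0.00 in DID liver.

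In PFC, 0 of 22 members were DE in Chronic (4.38% of all transcripts), 1 of 21 in CI (5.21%) and 0 of 19 in DID (3.88%), and 0 passed the adjusted test in any of them, as did 0% of all transcripts. The CI gene was Ifit2, with a change of -0.10 (SE 0.04, p = 0.0125, adjusted p = 0.865), whose other probe had -0.04 (SE 0.04, p = 0.360). Lower means were seen in 12 of 22 members in Chronic (48% of all transcripts) and in 13 of 19 in DID (48.8%). In CI, 19 of 21 members had lower means, against 50.4% of all transcripts, and the median change was -0.05. That count was 15 of 21, with a median of -0.02 and 0 DE, without the 2 control arrays that lay farthest from the others, and 14 of 21 without all 3 controls that stood apart. Both settings leave out control mice 5 and 6, and the first was chosen after seeing the data. Over all 10 CI PFC controls the mean level of 4 meningeal and vascular fibroblast markers reached 11.13 and that of 5 thalamic markers 10.42. In the drinkers these levels were at most 10.38 and 8.81, and their part in the result was not tested. Ifitm3 ran from 9.33 to 10.47 with a median of 9.50 in the CI water mice and from 9.27 to 10.06 with a median of 9.46 in the drinkers (-0.20 (SE 0.15, p = 0.192)), while Usp18 (-0.12 (SE 0.07, p = 0.104)), Ifitm2 (-0.13 (SE 0.09, p = 0.164)) and Irf9 (-0.05 (SE 0.04, p = 0.186)) also had lower means. In Chronic PFC the smallest p were those of Oasl2 (0.09 (SE 0.05, p = 0.0593)), Irgm1 (-0.12 (SE 0.06, p = 0.0664)), Ifitm3 (-0.20 (SE 0.14, p = 0.174)), Usp18 (0.06 (SE 0.05, p = 0.235)) and Ifi27 (-0.10 (SE 0.09, p = 0.248)). In DID PFC they were those of Lgals3bp (-0.07 (SE 0.05, p = 0.124)), Ifit2 (0.04 (SE 0.03, p = 0.163)), Irf9 (-0.04 (SE 0.03, p = 0.193)), Adar (-0.08 (SE 0.06, p = 0.220)) and Ifit3 (-0.08 (SE 0.07, p = 0.259)).

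The mean of the 3 ethanol effects was tested in a joint fit of each tissue. Ifitm3 was the 1 member with an unadjusted p under 0.05 in either: in liver 1 of 27 (12.9% of all 8449 transcripts), with -0.10 (SE 0.03, p = 0.00325, adjusted p = 0.0976), and in PFC 1 of 19 (6.91% of 10767), with -0.16 (SE 0.07, p = 0.0317, adjusted p = 0.690). Ifitm3 was lower in all 6 ethanol comparisons, by 0.06, 0.09 and 0.14 in liver and 0.20, 0.20 and 0.08 in PFC, though the pooled p did not pass after adjustment in either tissue and in PFC was over 0.05 with array weights. The pooled test was made from these same effects, so their shared direction is not separate support. The pooled effect was below 0 in 18 of 19 members in PFC and in 19 of 27 in liver. The median pooled effect of the members was small, -0.03 in PFC and -0.02 in liver. The share of all transcripts below 0 was not counted, so these counts have no background and are not read as a shift of the members. The PFC fit also held the CI controls that stood apart.

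The effect of LPS in liver was then set against each ethanol effect, each with its own controls. By the study's methods these treatments also differ in age and length and, for DID, in light cycle. Against Chronic 7 of 27 members differed at an unadjusted p under 0.05 (12.8% of all), against CI 3 (4.64%) and against DID 8 (7.39%), always with the lower effect for LPS. After adjustment 1 remained against Chronic (1.38% of all) and 0 against CI and DID. Dhx58 was among those under the unadjusted threshold against each of them, by -0.24 (SE 0.06) from Chronic with adjusted p = 0.0326, by -0.23 (SE 0.06) from CI with adjusted p = 0.222 and by -0.25 (SE 0.06) from DID with adjusted p = 0.0636. Its ethanol changes were -0.01, -0.01 and 0.00. Rsad2 differed from DID by -0.40 (SE 0.10) (adjusted p = 0.0636). In PFC, LPS differed from Chronic in 3 of 19 members (7.04%), from CI in 3 (5.46%) and from DID in 1 (2.96%), each with the higher effect for LPS, and 0 passed the adjusted test. Ifitm2 and Ifitm3 differed from both Chronic (0.27 (SE 0.11, p = 0.0145) and 0.44 (SE 0.18, p = 0.0154)) and CI (0.31 (SE 0.11, p = 0.00539) and 0.44 (SE 0.17, p = 0.0136)). Between tissues, ethanol effects differed at that threshold in 3 of 22 members for Chronic (7.23%), 1 of 21 for CI (7.34%) and 0 of 19 for DID (4.78%).

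**Figure D4:**
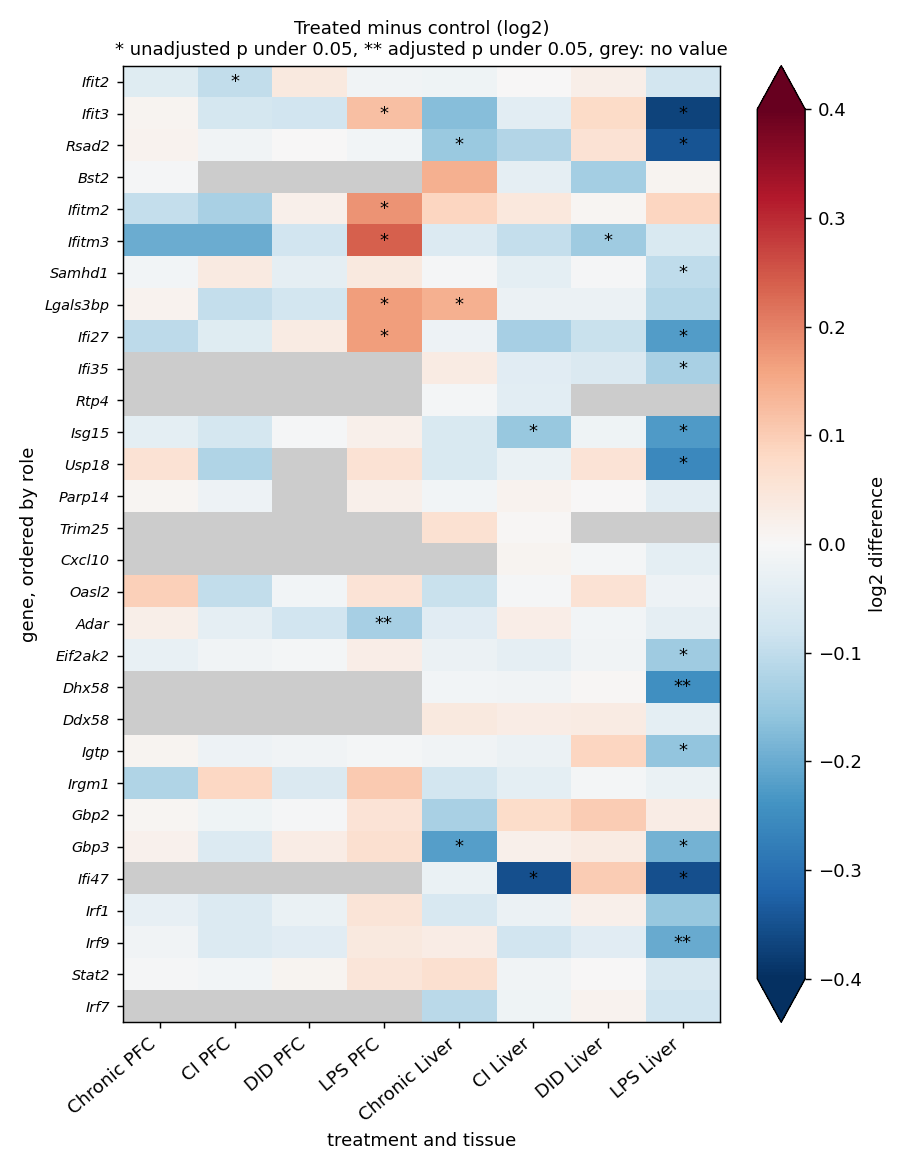
Treated minus control in log2 (colour, from blue for lower to red for higher) for the 30 members (rows, ordered by role) in the 8 combinations of treatment and tissue (columns), where 1 star marks an unadjusted p under 0.05, 2 stars an adjusted p under 0.05 and grey no value. The LPS liver column is lower in 25 of 28 genes and the LPS PFC column higher in 17 of 21.

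The level of the members differed widely, although brightness depends on the probe and gives no order between genes. Control means ran from 7.97 (Adar in DID liver) to 14.85 (Ifitm3 in Chronic liver) in liver and from 8.05 (Parp14 in CI PFC) to 13.82 (Irgm1 in Chronic PFC) in PFC. Irf7, Ifi47, Dhx58, Ddx58 and Ifi35 had values in all 4 liver sets and in none of PFC, Cxcl10 in 3 liver sets, and Rtp4 and Trim25 in 2. Array by array, the median deviation of the members overlapped between treated and control mice in every set, and it lay lowest in LPS liver.

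**Figure D5:**
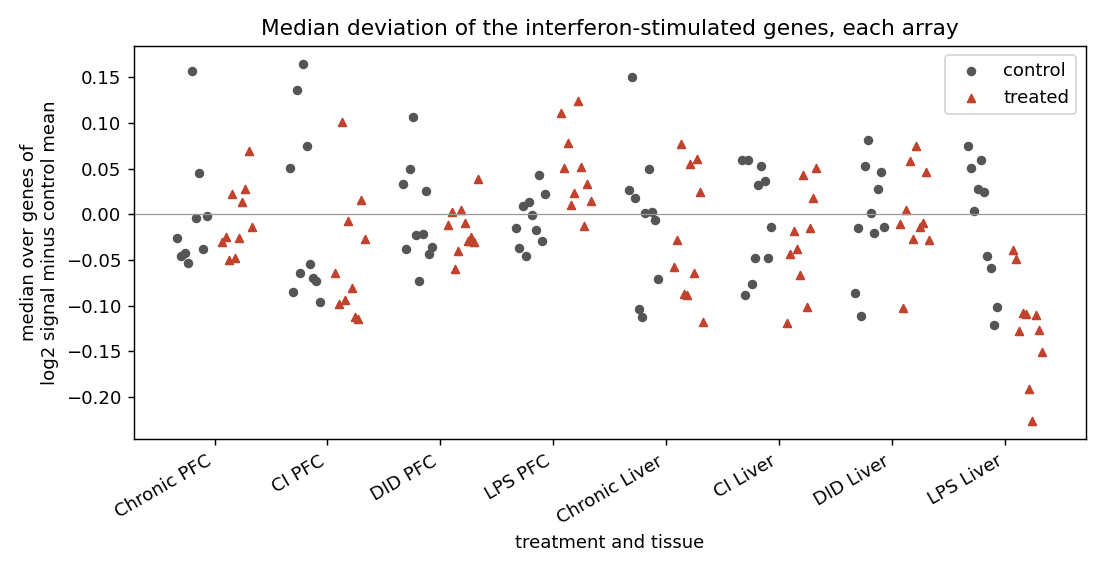
Median over members of log2 signal minus the control mean (y axis) for each array in the 8 sets (x axis), with circles for controls and triangles for treated mice. The 10 LPS livers all lie below 0, and the highest value, 0.16, belongs to a control of CI PFC, with controls of Chronic PFC and Chronic liver close to it.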

How the data were processed

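RNA of PFC and liver was measured on Illumina MouseRef-8 beadchips, with 1 mouse an array. The deposited values are log2 intensities that the authors made in lumi by variance stabilization and quantile normalization, after dropping transcripts detected on too few arrays and blanking outlying single values by Grubbs' test, which narrows the spread within groups. Bead signals from before normalization (159 columns) carry running numbers that the labels do not tie to a mouse and were not used. Of 13983 probes, 13181 had 1 gene symbol from the platform annotation and 802 had none, with 4 symbols updated. Ifi27l2a, once called Ifi27, was not taken as Ifi27. The members and lists were chosen with earlier results of these data known.

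Treated minus control was fitted to all probes of each tissue and treatment with limma 3.58.1 in R 4.3.3 (lmFit, eBayes), without pairing, with Benjamini-Hochberg adjustment over the probes of the set. Differences between effects came from joint fits with 1 mean a group. On simulated data with the means and spreads of LPS liver (9550 probes), the fit recovered 58% of changes of 0.2 and 94% of changes of 0.35, and in LPS PFC (11508 probes) 90% and 98%. The simulated sets held 50 changed probes of each size, with sizes up to 1. In the real data 53 transcripts of LPS liver and 13 of LPS PFC passed the adjusted test. Since that test grows stricter when fewer transcripts change, these shares may overstate what it can find in the real sets. Precision is limited by how many arrays there are. The genes named are those past the adjusted test in any set, those DE in LPS liver, LPS PFC or at least 2 sets of a tissue, the 5 with the smallest p per set, and those with the highest and lowest control means. Of other lists, those past the adjusted test or the 3 with the smallest p in the LPS sets were to be named, and further DE genes were named after their values were seen. Alternatives were probes with no blank value, array weights, the replicate number as a block, eBayes with trend and robust, median centring, a filter on dim probes, the mean of a gene's probes, leaving out arrays that stand apart (over 5 median absolute deviations below the set's median correlation), 3 array clusters as a term in DID liver, and leaving out each array. Promoters are from RefSeq.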

Additional observations from a re-analysis of the deposited data

Results flagged for a closer look

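In 3 of 98 groups of values of the genes named, 1 mouse lay far from the others by Dixon's criterion. Chance alone meets it in about 1 of 20 groups of complete values. Outlying values had already been blanked by Grubbs' test here, so the count cannot be read against that rate. LPS mouse 8 had the highest Ifi35 value of the LPS-treated livers, 9.08 against 8.88 for the next. Water mouse 6 had the lowest Oasl2 value of the DID water livers, 8.04 against 8.23, and CI mouse 10 the highest Rtp4 value of the livers of CI drinkers, 8.01 against 7.94.

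In 4 cases an effect differed between groups at an adjusted p under 0.05 in limma. The LPS effect on Dhx58 in liver was 0.24 lower than the Chronic effect (-0.24, adjusted p = 0.0326). The LPS effect in liver minus that in PFC was -0.49 for Ifit3, -0.39 for Ifi27 and -0.24 for Irf9 (adjusted p = 0.0364, 0.0370 and 0.0364).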

How the results depend on the processing

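With array median centring all 49 named changes kept their direction and their side of the adjusted threshold, as they did with array weights. Probes with no blank value turned Adar in LPS PFC to 0.021, Irgm1 in Chronic PFC to 0.014 and Ifit2 in DID PFC to -0.048, each then read by another probe, and the mean of a gene's probes turned the last to -0.0060. The adjusted count of LPS PFC was 0 instead of 1 with no blank values, trend and robust, the replicate block, the dim filter or the mean of probes, and that of LPS liver was 1 instead of 2 with the mean of probes or without arrays that stand apart. The DE count of CI PFC was 0 with the dim filter and 0 without the 2 control arrays (added after seeing the data), that of Chronic PFC 1 with trend and robust, and that of DID liver 0 with array weights.

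In the joint fits the pooled ethanol count in liver was 2 with centring, array weights, trend and robust or the replicate block, and that in PFC 0 with array weights or no blank values. With no blank values LPS minus Chronic liver had 0 adjusted, LPS minus CI liver 1, LPS minus DID liver 5, and liver minus PFC for Chronic 1. With array weights LPS minus CI liver had 6 and 1 adjusted, LPS minus DID PFC 5, liver minus PFC for CI 0 and for LPS 6 adjusted. The cause of these moves was not tested.

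Replicate numbers showed no steady pairing of the mice over all sets: 27 of 79 same-numbered pairs had deviations correlated over 0.1, and 8 of 79 treated arrays correlated best with the control of their own number. CI PFC stood out, with 9 of the former (its 10 pairs ran from 0.050 to 0.47) and 4 of the latter. What its same-numbered arrays shared was not tested. With the replicate block the DE count was 3 in CI PFC and 1 in Chronic PFC, Ifi47 (adjusted p = 0.0362) and Rsad2 (0.0436) passed in LPS liver and Irf9 (0.0631) did not, Adar had adjusted p = 0.0970 in LPS PFC, LPS minus DID PFC had 2, the pooled ethanol count in liver was 2, LPS minus CI and minus DID liver 1 adjusted each, and liver minus PFC for LPS 5 adjusted. No other adjusted call changed, and no other count moved by over 1.5 times.

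Leaving out each array gave 12 to 16 DE members in LPS liver (1 to 5 adjusted, Dhx58 in every fit), 6 to 8 in LPS PFC (0 to 1 adjusted), 3 to 5 in Chronic liver (5 without control 4 or drinkers 3, 8 or 9), 2 to 4 in CI liver (4 without control 2 or 4) and 1 in every fit in DID liver.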
